A study of Homo sapiens with 12 samples.

Results

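The response of the human multiple myeloma cell line MM.1S to IT848 was followed across all genes in 6 of the 12 libraries of the series: 3 from cells that received 6 µM IT848 for 6 h and 3 from cells that received the solvent DMSO for the same 6 h. The libraries were chosen by their labelled line and treatment, and read counts were summed per gene symbol. IT848 is a compound that the series describes as an inhibitor of NF-kB and that is known here by its code name alone. The other 6 libraries, from the myeloma line U266 under the same treatments, entered the fit and served for a test of the difference between the lines. All libraries were made from total RNA of cultured cells with no genetic change named in the labels. Nothing in the labels tells if replicates are separate cultures, and p-values therefore measure only the spread between these libraries, which may be technical.

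Multiple myeloma is a cancer of plasma cells, the antibody-secreting descendants of B cells. MM.1S is a glucocorticoid-sensitive line with a translocation that places the transcription factor MAF under an immunoglobulin enhancer. In such cells NF-kB dimers, held in the cytoplasm by IkB proteins until IkB kinases act, drive genes of survival and cell contact. NRF2 is a transcription factor that is released from its inhibitor KEAP1 when reactive cysteines of KEAP1 are modified, and then acts on antioxidant and detoxifying genes. HSF1 is the factor that drives chaperone genes when unfolded proteins accumulate. Plasma cells also depend on the proteasome and on the unfolded protein response of the endoplasmic reticulum, because they secrete so much protein.

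The markers set for the line fitted the label. MAF, ITGB7, CCND2, CCR1 and NUAK1 summed to 9006 to 10811 CPM (read counts scaled to library size with TMM factors) in the 6 MM.1S libraries and to 413 to 487 CPM in the U266 libraries. CCND1 and IL6, which mark U266, summed to 2.86 to 6.31 CPM in MM.1S and to 387 to 513 CPM in U266. Marker lists of T and NK, myeloid and epithelial cells summed to at most 3.63 CPM in any MM.1S library, with KLRD1, CD3G, S100A8, MPO and KRT19 at 0 in several of them. The erythroid list was HBB almost alone, at 1.90 to 2.10 CPM with DMSO and 4.01 to 5.31 CPM with IT848. All 5 stromal markers were detected, and their sum was 15.8 to 20.2 CPM with DMSO and 23.1 to 29.2 CPM with IT848.

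The 6 libraries held 50627690 to 71170495 transcript counts, or 22887470 to 32181627 with 1 transcript per gene, and 18259 to 19326 genes. Replicates of a group correlated at Pearson r 0.992 to 0.998 on the log2 scale across genes. DMSO replicate 2 stood apart by a trace of U266 reads: 48 genes high in U266 and near 0 in the other 2 DMSO libraries summed there to 0.431% of their U266 level, against 0.0347% and 0.0420% in the libraries used to choose them and 0.0737 to 0.0987% in the IT848 libraries. The groups also differed along transcript length, as described with the ribosomal protein genes. Of 782 symbols that the tables list at several genomic places, among them many genes of the major histocompatibility complex, 486 had at most 3 counts over the 6 libraries (62.1%, against 24.3% of other symbols). Values of such genes, for example HSPA1A, HSPA1B, PSMB8, PSMB9, TAP1, TNF and LTB, are uncertain and were not read as low expression.

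IT848 changed the level of 6430 of 16782 tested genes in MM.1S (38.3%) at an adjusted p below 0.05 by edgeR's quasi-likelihood test. Of these, 3141 rose (18.7%) and 3289 fell (19.6%). Most changes were small: the median size among changed genes was 0.36 on the log2 scale, and 486 genes (2.90%) changed at least 2-fold, 279 upward (1.66%) and 207 downward (1.23%). At 4-fold or more, 69 genes rose and 41 fell, and none of these 41 reached a mean of 5 CPM with DMSO. The median over all tested genes was -0.01, with quartiles of -0.26 and 0.21, and these are the values against which the medians of gene lists are given below. Counts of rises and falls in a list are to be set against the shares of 18.7% and 19.6%. Without DMSO replicate 2 the counts were 5375 changed genes and 474 at 2-fold.

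**Figure D1:**
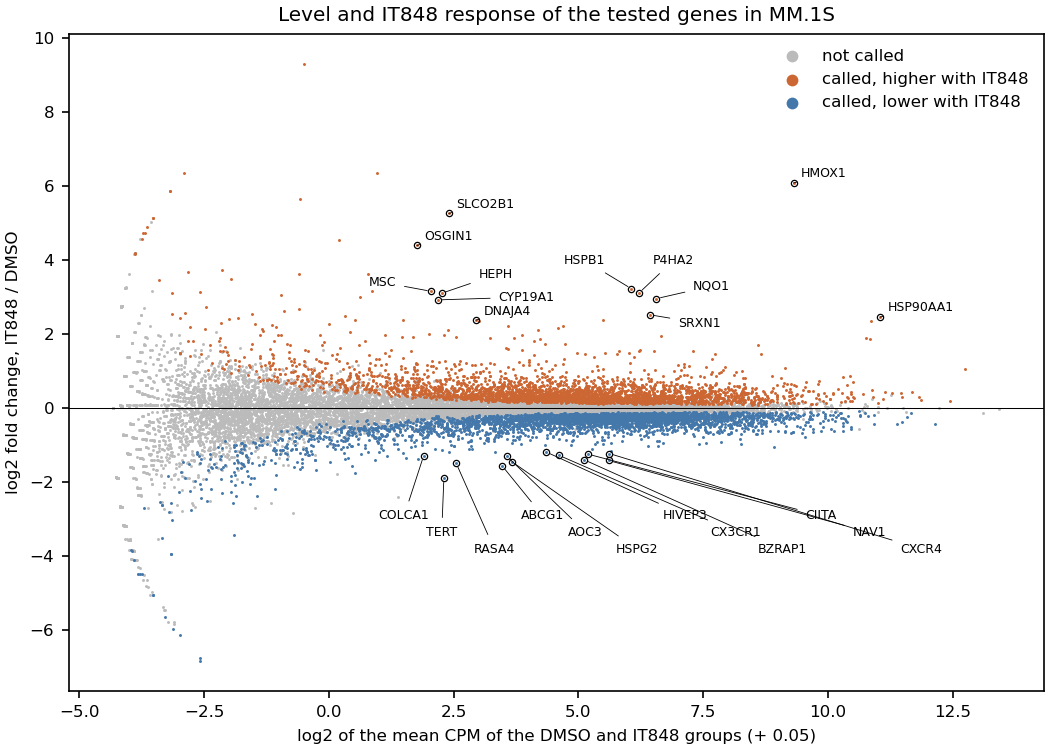
Log2 fold change of IT848 against DMSO in MM.1S (vertical) against the log2 mean CPM (horizontal) for the tested genes; coloured points passed an adjusted p of 0.05, and the 12 largest rises and 12 largest falls with a higher-group mean of at least 5 CPM are circled and named. The rises reach from 2.37 (DNAJA4) to 6.08 (HMOX1), whereas the falls named span only -1.18 (HIVEP3) to -1.90 (TERT); unnamed points at the far left rest on few counts.

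The genes with the largest rises were HMOX1, SLCO2B1, OSGIN1, HSPB1, MSC, P4HA2, HEPH, NQO1, CYP19A1, SRXN1, HSP90AA1 and DNAJA4. Those of heme breakdown, thiol and quinone reduction, chaperones and collagen hydroxylation are described with their pathways below. Beside a log2 fold change the value after ± is its SE, and beside a mean CPM it is the SD over 3 libraries. A bare value after "rose by", "fell by" or in brackets after a gene is its log2 fold change. SLCO2B1, an importer of organic anions, had 0, 0.811 and 0.105 CPM with DMSO and 11.2, 11.9 and 7.50 CPM with IT848. The DMSO level rested mostly on replicate 2, the library with the U266 trace, and without it the log2 fold change was 7.70 in place of 5.25. The part of the trace in this level was not tested. SLCO2B1 stood at 30.6, 29.1 and 34.6 CPM with DMSO and 61.8, 61.2 and 67.1 CPM with IT848 in U266. HEPH, a membrane ferroxidase that supports iron export, had 0.732, 1.31 and 0.983 CPM with DMSO and 9.56, 8.47 and 7.38 CPM with IT848 (log2 fold change 3.10 ± 0.18). CYP19A1, the aromatase that makes estrogens, had 1.04, 1.07 and 1.05 CPM with DMSO and 8.91, 7.46 and 7.59 CPM with IT848 (log2 fold change 2.92 ± 0.15). MSC, a basic helix-loop-helix repressor expressed in activated B cells, had 0.789, 0.732 and 0.966 CPM with DMSO and 7.47, 7.80 and 6.85 CPM with IT848 (log2 fold change 3.15 ± 0.15). For these genes every IT848 library lay above every DMSO library, as it did or the reverse for 47.2% of all tested genes.

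Among the largest falls, TERT, the catalytic subunit of telomerase, had 8.82, 7.78 and 6.57 CPM with DMSO and 2.30, 2.21 and 1.71 CPM with IT848 (log2 fold change -1.90 ± 0.17, adjusted p = 8.55e-07). RASA4, a GTPase-activating protein for Ras, had 8.76, 8.43 and 8.60 CPM with DMSO and 3.39, 2.91 and 2.85 CPM with IT848 (log2 fold change -1.50 ± 0.10), and RASA4 has near-identical copies that can share its reads. HSPG2, the basement membrane proteoglycan perlecan, had 19.9, 17.2 and 18.2 CPM with DMSO and 7.74, 6.78 and 5.84 CPM with IT848 (log2 fold change -1.44 ± 0.12). The libraries of the 2 groups did not overlap for any of these genes, as for 47.2% of all tested genes. NAV1, a microtubule-associated protein first described in neurons, went from 70.7 ± 3.03 to 26.5 ± 2.87 CPM (SD, n = 3), a 2.67-fold fall. BZRAP1, an adaptor of presynaptic calcium channels, fell 2.63-fold, AOC3, a vascular amine oxidase, 2.47-fold, COLCA1 2.45-fold and HIVEP3, a large zinc finger protein that binds kB-like sites, 2.27-fold. The remaining falls, ABCG1, CX3CR1, CIITA and CXCR4, belong to groups described below.

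**Figure D2:**
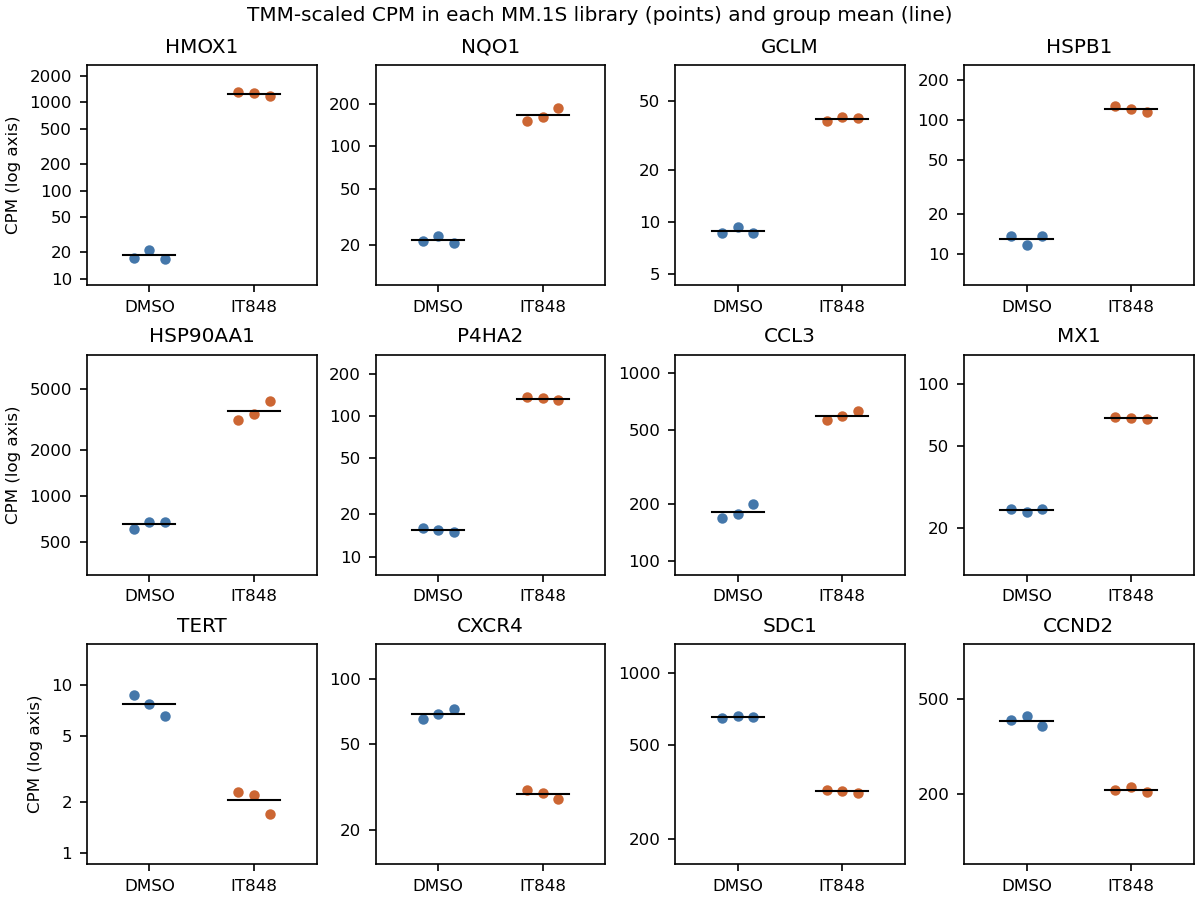
TMM-scaled CPM (log axis, a different range in each panel) of 12 genes in the 3 DMSO and 3 IT848 libraries of MM.1S; points are libraries and lines are group means. The groups are separate in every panel, with the widest gap for HMOX1 and replicates that lie close together for P4HA2, MX1 and SDC1.

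Antioxidant genes held the largest single rise and several more of the ranked rises. NRF2 binds, with a small MAF partner, to the antioxidant response element, whose core is TGACNNNGC. Among 107 tested genes of the heme, glutathione, thioredoxin, NADPH, quinone and NRF2 regulator lists, 91 had a RefSeq promoter window of 250 bases before to 50 after the start (85.0%), and 17 of the 91 windows held the core on either strand (18.7%), against 13.6% of all 27305 windows. The share lies near the background. The core can overlap the AP-1 site TGACTCA. The 2 changed genes with the largest change whose window holds it were ABCB6 and PIR, shown to give the sequence context, with the matched core in capitals (GRCh38.p14, 5′ to 3′ along the gene).
ABCB6 promoter (chr2:219218909-219219208, minus strand): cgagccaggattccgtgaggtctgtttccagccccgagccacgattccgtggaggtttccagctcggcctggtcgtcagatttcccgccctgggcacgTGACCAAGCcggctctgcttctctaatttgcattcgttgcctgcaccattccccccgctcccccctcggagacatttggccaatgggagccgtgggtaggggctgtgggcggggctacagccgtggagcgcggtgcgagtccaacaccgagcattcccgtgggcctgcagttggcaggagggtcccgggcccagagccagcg
PIR promoter (chrX:15493284-15493583, minus strand): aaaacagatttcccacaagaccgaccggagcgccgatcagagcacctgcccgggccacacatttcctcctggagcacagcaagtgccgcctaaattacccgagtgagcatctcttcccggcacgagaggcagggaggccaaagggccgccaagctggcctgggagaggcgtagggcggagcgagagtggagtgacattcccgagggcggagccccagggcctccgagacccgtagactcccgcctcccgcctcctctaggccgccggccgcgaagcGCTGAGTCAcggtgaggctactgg
In ABCB6 the match began 152 bases before the start. In PIR it lay just downstream of the start on the opposite strand and also holds the AP-1 letters TGAGTCA.

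HMOX1, heme oxygenase, which splits heme into biliverdin, iron and carbon monoxide, showed the largest rise of all ranked genes. It had 17.3, 21.4 and 17.1 CPM with DMSO and 1312, 1274 and 1173 CPM with IT848 (log2 fold change 6.08 ± 0.10, adjusted p = 5.49e-14), a 67.5-fold rise with replicates that differed little. Both ferritin chains rose as well, and other iron genes went either way. FTL, the ferritin light chain, had 589.7, 604 and 641 CPM with DMSO and 3107, 3053 and 3169 CPM with IT848 (log2 fold change 2.35 ± 0.044), and its share of the counts, taking 1 transcript per gene, went from 0.134% to 0.674%, the largest gain of any gene in that share. FTH1, the ferritin heavy chain that oxidises iron for storage, rose by 1.53. ABCB6, a porphyrin transporter, had 14.6, 14.5 and 14.5 CPM with DMSO and 77.5, 76.7 and 71.4 CPM with IT848 (log2 fold change 2.37 ± 0.049). FECH, which inserts iron into heme, rose by 0.76 and SLC48A1, a heme importer, by 0.84. TFRC, the transferrin receptor through which cells take up iron, went the other way, from 326 ± 3.39 to 209 ± 9.22 CPM (log2 fold change -0.64 ± 0.047). SLC40A1, the iron exporter ferroportin, had log2 fold change -0.49 ± 0.18 (adjusted p = 0.0462), a call that was lost in 16 of the 22 alternative settings, including leaving out any 1 of the 6 MM.1S libraries. Of the whole heme and iron list, 8 of 18 tested members rose and 5 fell (median log2 fold change 0.04); the falls came to 3 without DMSO replicate 1, 2 or any single IT848 replicate. FTL has many processed pseudogenes and its reads may have been split.

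Glutathione genes rose at the steps of cystine import, synthesis and recycling. In the list, 16 of 27 tested members rose and 2 fell (median log2 fold change 0.38). SLC7A11, the cystine importer, had 6.92, 7.08 and 6.50 CPM with DMSO and 29.3, 30.3 and 29.2 CPM with IT848 (log2 fold change 2.12 ± 0.073, adjusted p = 4.86e-11). GCLM, the modifier subunit of the rate-limiting ligase of glutathione synthesis, had 8.68, 9.46 and 8.67 CPM with DMSO and 38.3, 40.3 and 40.04 CPM with IT848 (log2 fold change 2.15 ± 0.057), and its catalytic partner GCLC rose less, by 0.73. GSR, which returns oxidised glutathione to its reduced form, rose 2.77-fold, from 215 ± 2.88 to 595 ± 9.80 CPM. GSTM3, a glutathione transferase, rose from near 0, from 0.0903 ± 0.0815 to 1.13 ± 0.206 CPM. CHAC1, which degrades glutathione, had log2 fold change -0.13 ± 0.079 (adjusted p = 0.221), and ABCC1, which exports glutathione conjugates, fell by 0.43 on the log2 scale. With the trend on transcript length taken out, the list had 15 higher and 4 lower (median 0.23).

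Thioredoxin genes rose around the reductase and the enzymes it serves. In this list, 12 of 19 tested members rose and 2 fell (median log2 fold change 0.35). TXNRD1, thioredoxin reductase, had 779, 818 and 782 CPM with DMSO and 2793, 2898 and 2932 CPM with IT848 (log2 fold change 1.86 ± 0.036, adjusted p = 6.10e-14). SRXN1, sulfiredoxin, which repairs overoxidised peroxiredoxins, had 25.5, 25.5 and 25.9 CPM with DMSO and 146, 149 and 145 CPM with IT848 (log2 fold change 2.52 ± 0.046). TXN, thioredoxin itself, rose by 0.96 and PRDX1, the main cytosolic peroxiredoxin, by 0.72. The falls were TXNIP (-0.35), which binds and inhibits thioredoxin, and SESN2 (-0.34), a sestrin.

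The enzymes that make NADPH, the electron source of both systems, were divided. In the list, 5 of 14 tested members rose and 6 fell (median log2 fold change 0.04). TALDO1, transaldolase of the pentose phosphate pathway, had 82.00, 83.8 and 91.05 CPM with DMSO and 184, 193 and 204 CPM with IT848 (log2 fold change 1.18 ± 0.058), and ME1, cytosolic malic enzyme, rose by 1.37. PGD, a dehydrogenase of the same pathway, rose by 0.59. MTHFD1, a folate enzyme that also yields NADPH, fell (-0.71).

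Quinone and carbonyl reductases held some of the steepest rises and no fall. In the list, 9 of 16 tested members rose and 0 fell (median log2 fold change 0.70). NQO1, the quinone reductase most often used as a readout of NRF2, had 21.2, 23.1 and 20.6 CPM with DMSO and 152, 163 and 189 CPM with IT848 (log2 fold change 2.95 ± 0.076, adjusted p = 1.73e-12). PIR, pirin, an iron-binding nuclear protein, rose 4.60-fold, and it shares reads with the readthrough symbol PIR-FIGF. AKR1C2, an aldo-keto reductase with close relatives, had no count in the 3 DMSO libraries and 76, 60 and 84 counts in the IT848 libraries. Against a floor of 3 counts per library (0.0514 CPM) it was at least 25.7-fold higher. Of aryl hydrocarbon receptor genes, 2 of 7 tested members rose and 0 fell (median log2 fold change 0.11). The rises were NQO1, also in the quinone list, and ARNT (0.11, adjusted p = 0.0414). The call of ARNT was lost in 8 of the 22 alternative settings, among them that without DMSO replicate 2. Among those not called, CYP1A1 had log2 fold change -0.55 ± 0.72 (adjusted p = 0.583), CYP1B1 log2 fold change -0.23 ± 0.38 (adjusted p = 0.677) and AHRR log2 fold change 0.13 ± 0.093 (adjusted p = 0.311).

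NRF2's own circuit rose nearly throughout. In the list of NRF2, its partners and its regulators, 11 of 13 tested members rose and 0 fell (median log2 fold change 0.49). NFE2L2, which encodes NRF2, rose by 0.47 and its inhibitor KEAP1 by 0.69, while the competing repressor BACH1 rose by 0.63 and the small MAF partner MAFG by 0.89. SQSTM1, the autophagy receptor p62 that sequesters KEAP1, had 713, 748 and 757 CPM with DMSO and 2783, 2763 and 2683 CPM with IT848 (log2 fold change 1.89 ± 0.037). OSGIN1, an oxidative stress-induced growth inhibitor, had 0.282, 0.376 and 0.263 CPM with DMSO and 6.54, 7.34 and 5.29 CPM with IT848 (log2 fold change 4.39 ± 0.22). Both had non-overlapping groups, like 47.2% of all tested genes.

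Chaperone genes changed unevenly. HSF1 binds arrays of nGAAn units, searched here on both strands as 3 units that alternate between GAA and TTC, beginning with either, with any 2 bases between units. Of 77 tested members of the chaperone lists, 66 had a promoter window, and 6 of these (9.09%) held the element, against 0.487% of all windows. Among called members with a window the share was 9.76%, so it describes the lists and not the response. The changed members with the largest changes that held the element were HSPA6 and SERPINH1. Their elements, in capitals, began 74 and 76 bases before the start.
HSPA6 promoter (chr1:161524290-161524589, plus strand): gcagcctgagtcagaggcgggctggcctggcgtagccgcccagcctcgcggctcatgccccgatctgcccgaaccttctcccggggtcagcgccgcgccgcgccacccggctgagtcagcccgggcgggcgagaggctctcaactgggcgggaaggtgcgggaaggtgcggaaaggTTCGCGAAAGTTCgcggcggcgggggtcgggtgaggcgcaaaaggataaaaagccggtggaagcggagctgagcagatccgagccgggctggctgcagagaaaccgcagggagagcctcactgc
SERPINH1 promoter (chr11:75562003-75562302, plus strand): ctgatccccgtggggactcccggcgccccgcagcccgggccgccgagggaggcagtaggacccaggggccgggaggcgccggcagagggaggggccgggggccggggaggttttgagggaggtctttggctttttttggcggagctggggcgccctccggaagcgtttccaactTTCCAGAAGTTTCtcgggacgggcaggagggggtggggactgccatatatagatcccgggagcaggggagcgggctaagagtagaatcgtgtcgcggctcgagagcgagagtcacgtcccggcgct
HSPA6 had 3.93, 3.72 and 3.20 CPM with DMSO and 9.40, 7.89 and 8.86 CPM with IT848 (log2 fold change 1.26 ± 0.15). SERPINH1, the collagen chaperone HSP47, had 1.86, 1.90 and 2.53 CPM with DMSO and 4.42, 4.005 and 4.59 CPM with IT848 (log2 fold change 1.05 ± 0.13).

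Among chaperones, HSP90 genes gained the largest share of the counts. Of the HSP90 and co-chaperone list, 10 of 16 tested members rose and 4 fell (median log2 fold change 0.27). HSP90AA1, the inducible cytosolic HSP90, had 612, 673 and 676 CPM with DMSO and 3139, 3428 and 4197 CPM with IT848 (log2 fold change 2.46 ± 0.090, adjusted p = 9.09e-10), and HSP90AB1, the constitutive form, rose 2.08-fold, from 4468 ± 50.8 to 9312 ± 71.9 CPM. Their shares of the counts, taking 1 transcript per gene, went from 0.0718% to 0.388% and from 0.197% to 0.404%. The co-chaperones FKBP4 (1.14), AHSA1 (0.70) and STIP1 (0.61) rose as well. TRAP1 of mitochondria (-0.48), FKBP5 (-0.56) and the gene of HSF1 itself (-0.25) fell.

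In the HSP70 family, 5 of 13 tested members rose and 2 fell (median log2 fold change 0.24). HSPH1, an HSP110 that exchanges nucleotide on HSP70, had 353, 368 and 369.7 CPM with DMSO and 741, 773 and 799.8 CPM with IT848 (log2 fold change 1.08 ± 0.040). HSPA8, the constitutive HSC70, had 1990.0, 2103 and 2281 CPM with DMSO and 1732, 1930.0 and 2274 CPM with IT848, and its groups overlapped (log2 fold change -0.10 ± 0.079, adjusted p = 0.333). HSPA5, the endoplasmic reticulum chaperone BiP, had log2 fold change 0.01 ± 0.040 (adjusted p = 0.861). Stress-inducible HSPA1A and HSPA1B lie in the repeated region described above and could not be read.

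Among HSP40 co-chaperones, 4 of 13 tested members rose and 0 fell (median log2 fold change 0.13); without IT848 replicate 1 the number of rises was 7. DNAJA4 alone made a large step, with 3.06, 2.18 and 2.16 CPM with DMSO and 13.3, 13.4 and 12.01 CPM with IT848 (log2 fold change 2.37 ± 0.14), followed by DNAJB2 (0.63). DNAJB1, the classic heat-inducible member, had 102, 111 and 107 CPM with DMSO and 99.4, 106 and 108 CPM with IT848 (log2 fold change -0.03 ± 0.060, adjusted p = 0.714), and the groups overlapped. Of the small heat shock proteins and BAG factors, 4 of 11 tested members rose and 1 fell (median log2 fold change 0.10). HSPB1, a small chaperone that holds unfolding proteins, had 13.6, 11.7 and 13.5 CPM with DMSO and 128, 119.9 and 115 CPM with IT848 (log2 fold change 3.22 ± 0.090, adjusted p = 6.98e-12). HSPB8 rose by 1.97 from a level under 1 CPM, and its partner BAG3, which links it to autophagy, by 0.42.

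The mitochondrial chaperonin pair rose, HSPD1 by 0.87 and HSPE1 by 1.16, with HSPE1 at 74.2, 77.5 and 85.1 CPM with DMSO and 149.9, 172 and 206 CPM with IT848. These genes lie head to head and share a promoter. Of the whole mitochondrial list, 2 of 14 tested members rose and 4 fell (median log2 fold change -0.03), not far from the shares of all genes. With the length trend taken out there were 4 higher and 6 lower (median -0.05). The cytosolic chaperonin CCT, which folds actin and tubulin, rose in small steps: with prefoldin, 9 of 13 tested members rose and 0 fell (median log2 fold change 0.19). CCT4 rose by 0.48, TCP1 by 0.15 and the prefoldin PFDN4 by 0.87.

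Proteasome genes rose almost without exception. Of the 33 genes listed for the 20S core and 19S cap, not all of them subunits of the finished particle, 32 rose and 1 fell. The median log2 fold change was 0.54, with a range of -0.21 (PSMD5, named here after its value was seen) to 0.82 (PSMD14). PSMD14, the deubiquitinase of the lid, had 59.1, 59.98 and 63.5 CPM with DMSO and 97.5, 105 and 120.3 CPM with IT848 (log2 fold change 0.82 ± 0.064, adjusted p = 2.77e-07). PSMB5, the catalytic subunit that bortezomib inhibits, had 41.7, 46.00 and 45.1 CPM with DMSO and 65.5, 73.6 and 75.1 CPM with IT848 (log2 fold change 0.69 ± 0.055), and PSMC6, an ATPase of the base, rose by 0.78. The groups did not overlap for 32 of the 33, against 47.2% of all tested genes. With the length trend taken out (median 0.40) and without DMSO replicate 2, 32 rose and 1 fell. POMP, which assembles the core, rose by 0.68, and PSME4, an alternative cap, by 0.26. The interferon-induced cap subunit PSME2 had log2 fold change 0.01 ± 0.065 (adjusted p = 0.945).

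Ubiquitin and p97 genes rose beside them: 12 of 14 tested members rose and 0 fell (median log2 fold change 0.45). VCP, the p97 segregase, had 309.9, 306 and 307 CPM with DMSO and 444, 447 and 439 CPM with IT848 (log2 fold change 0.53 ± 0.035), its cofactor NPLOC4 rose by 0.71 and the proteasome deubiquitinase USP14 by 0.45. ZFAND2A, an arsenite-inducible proteasome partner, rose by 0.87, and the ubiquitin gene UBB by 0.51.

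**Figure D3:**
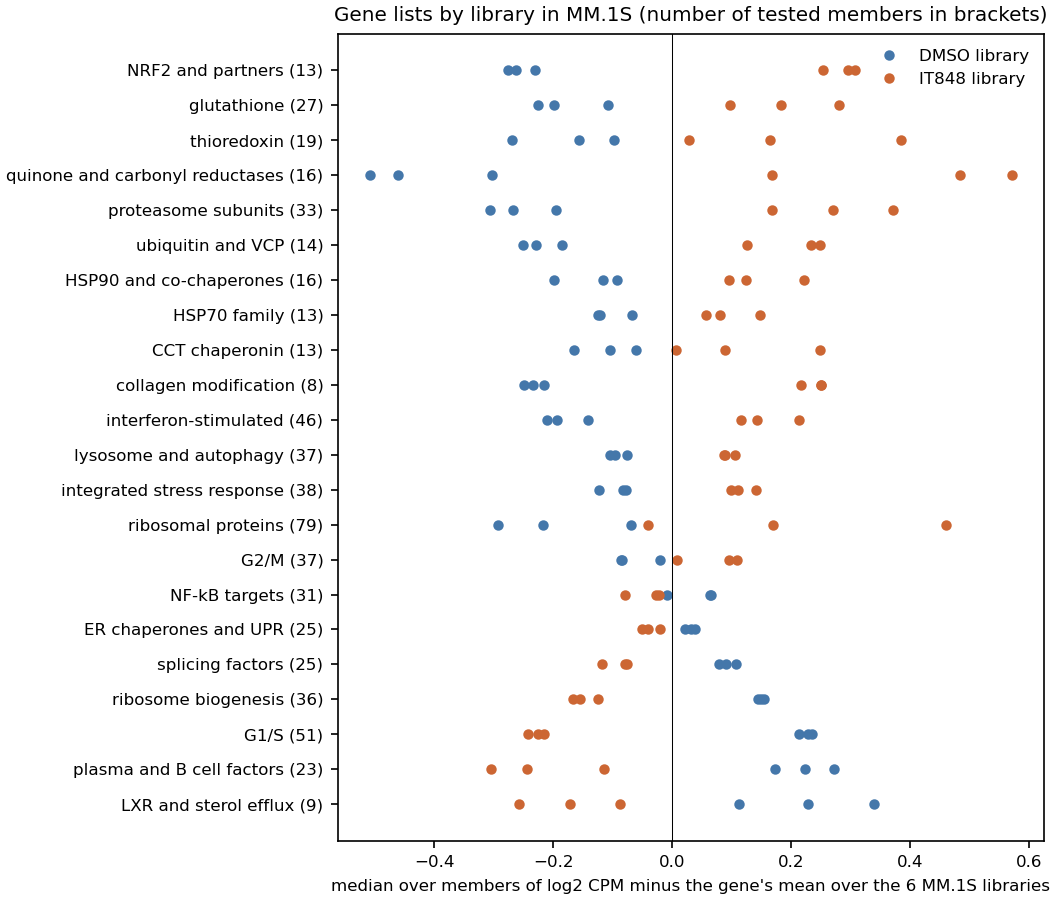
For 22 gene lists, the median over members of each gene's log2 CPM minus its mean over the 6 MM.1S libraries (horizontal), with a point per library; the number of tested members is in brackets. The groups are apart for all 22 lists, but only narrowly for NF-kB targets, G2/M genes and ribosomal proteins. NF-kB targets lie near 0, and ribosomal proteins are spread widely within each group.

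The integrated stress response, in which phosphorylation of eIF2 alpha raises translation of ATF4 and thereby amino acid genes, showed rises among amino acid genes. In the list, 20 of 38 tested members rose and 4 fell (median log2 fold change 0.18). CTH, which makes cysteine by transsulfuration, had 6.24, 4.85 and 5.51 CPM with DMSO and 11.8, 13.5 and 13.8 CPM with IT848 (log2 fold change 1.23 ± 0.086). PSAT1 of serine synthesis rose by 1.02, the folate enzyme ALDH1L2 by 0.85 and asparagine synthetase ASNS by 0.58. ATF4 itself rose by 0.26 and TRIB3, its feedback inhibitor, by 0.43. PPP1R15A, which restores translation by recruiting a phosphatase to eIF2 alpha, rose by 0.30. ATF3 had log2 fold change -0.11 ± 0.062 (adjusted p = 0.176), DDIT3, which encodes CHOP, log2 fold change 0.15 ± 0.083 (adjusted p = 0.185), and DDIT4, an mTORC1 inhibitor, fell from 10.98 ± 0.187 to 6.78 ± 0.895 CPM (log2 fold change -0.69 ± 0.078). Of cytosolic aminoacyl-tRNA synthetases, 10 of 19 tested members rose and 3 fell (median log2 fold change 0.16), with GARS at 0.36, TARS at 0.33 and AARS at 0.22. The falls were 6 with library totals in place of TMM.

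Of endoplasmic reticulum genes more fell than rose. In that list, 2 of 25 tested members rose and 10 fell (median log2 fold change -0.07); the falls were 6 when MM.1S libraries were fitted alone. XBP1, the unfolded protein response factor of plasma cells, had 973, 986 and 1005 CPM with DMSO and 654, 666 and 689.8 CPM with IT848 (log2 fold change -0.56 ± 0.042, adjusted p = 1.70e-07), and ERN1, the IRE1 sensor that splices its mRNA, fell from 70.1 ± 4.48 to 46.4 ± 4.41 CPM (log2 fold change -0.60 ± 0.071). DERL3, a degradation factor induced by XBP1, fell (-0.47). HERPUD1 had log2 fold change -0.04 ± 0.033 (adjusted p = 0.346) and DNAJB9 log2 fold change 0.14 ± 0.066 (adjusted p = 0.119).

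NF-kB genes, the named target of the compound, changed in small steps. Of the subunits and IkB family, 0 of 11 tested members rose and 4 fell (median log2 fold change -0.15). NFKBIZ, an atypical nuclear IkB, had 14.96, 15.3 and 14.1 CPM with DMSO and 10.1, 9.81 and 7.99 CPM with IT848 (log2 fold change -0.67 ± 0.076, adjusted p = 1.04e-05). BCL3, another nuclear IkB, fell from 7.45 ± 0.522 to 5.43 ± 0.352 CPM (log2 fold change -0.46 ± 0.084), REL, the subunit of activated B cells, from 5.47 ± 0.426 to 4.06 ± 0.474 CPM (log2 fold change -0.43 ± 0.10) and NFKB1, the p105 precursor of p50, by 0.20 on the log2 scale. RELA had 171, 176 and 174 CPM with DMSO and 175, 157 and 155 CPM with IT848 (log2 fold change -0.10 ± 0.059, adjusted p = 0.221). NFKBIA, the IkB alpha gene and a rapid target of NF-kB, had 15.7, 15.1 and 15.2 CPM with DMSO and 16.6, 16.3 and 15.5 CPM with IT848, with overlapping groups (log2 fold change 0.07 ± 0.049, adjusted p = 0.277). NFKB2 and RELB of the noncanonical branch had log2 fold change 0.08 ± 0.052 and log2 fold change 0.15 ± 0.057 (adjusted p = 0.236 and 0.0563).

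Of upstream regulators, 4 of 20 tested members rose and 5 fell (median log2 fold change -0.02), shares near those of all genes (18.7% and 19.6%), and 1 rose without DMSO replicate 1. TBK1, an IkB kinase relative, rose by 0.50. TRAF3, whose loss activates the noncanonical branch in myeloma, fell (-0.29), as did MAP3K14, the kinase NIK (-0.23), and IKBKB (-0.22). Among target genes, 3 of 31 tested members rose and 10 fell (median log2 fold change -0.04), and 5 rose without IT848 replicate 1. An index of 11 NF-kB genes used for myeloma cells had 1 rise and 3 falls (median -0.04), with 1 fall without IT848 replicate 2 or 3. Among so few members these counts lie near the shares of all genes. TNFAIP3, which encodes the deubiquitinase A20, went from 452 ± 11.2 to 380.0 ± 15.5 CPM (log2 fold change -0.25 ± 0.043) and BIRC3, an apoptosis inhibitor, had log2 fold change -0.09 ± 0.040 (adjusted p = 0.0803). The larger steps went both ways. CCL3, a chemokine that drives bone resorption in myeloma, had 169, 178 and 202 CPM with DMSO and 562, 592 and 628 CPM with IT848 (log2 fold change 1.70 ± 0.061, adjusted p = 7.20e-11), and CCL4 rose by 1.27. CXCL10 fell, with 8.90, 9.16 and 10.4 CPM with DMSO and 3.62, 4.14 and 5.45 CPM with IT848 (log2 fold change -1.11 ± 0.18). CCL3 and CCL4 have near-identical copies that can share reads.

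Most transcription factors of plasma and B cells fell. In the list, 2 of 23 tested members rose and 16 fell (median log2 fold change -0.49); with the length trend taken out the median was -0.33, with 15 falls. MYB had 244, 252 and 247 CPM with DMSO and 136, 131 and 122 CPM with IT848 (log2 fold change -0.94 ± 0.047, adjusted p = 3.01e-09) and POU2F2, the octamer factor OCT2, 55.6, 55.9 and 57.7 CPM with DMSO and 36.5, 31.8 and 29.4 CPM with IT848 (log2 fold change -0.79 ± 0.077). IRF4, on which myeloma cells depend, had 1338, 1274 and 1224 CPM with DMSO and 919.6, 848 and 818 CPM with IT848 (log2 fold change -0.57 ± 0.048). The lymphoid factors IKZF1 and IKZF3, which are degraded under lenalidomide, fell (-0.61 and -0.55), as did MAF, the driver of this line (-0.39), and PRDM1, the master gene of the plasma cell state (-0.38). BACH2, a repressor of that state, rose by 0.36.

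Of surface molecules of myeloma cells, 6 of 24 tested members rose and 6 fell (median log2 fold change -0.05), shares not far from those of all genes. With the length trend taken out there were 4 higher and 9 lower (median -0.09). SDC1, the plasma cell marker CD138, had 646, 662 and 656 CPM with DMSO and 321, 319.9 and 314 CPM with IT848 (log2 fold change -1.04 ± 0.036, adjusted p = 5.10e-11), so that every IT848 library lay below every DMSO library by a wide margin. CD38, the target of daratumumab, had 21.4, 19.8 and 21.8 CPM with DMSO and 11.8, 11.8 and 11.3 CPM with IT848 (log2 fold change -0.85 ± 0.074). IGF1R, a growth factor receptor, fell from 98.7 ± 6.15 to 54.9 ± 4.04 CPM (log2 fold change -0.85 ± 0.059). SLAMF7, the target of elotuzumab, rose by 0.43, and TNFRSF17, the BCMA target of cell therapies, by 0.27, a call that was lost with the length trend taken out (adjusted p = 0.111). NCAM1, the adhesion molecule CD56, had 5.59, 6.67 and 5.55 CPM with DMSO and 23.6, 24.2 and 22.3 CPM with IT848 (log2 fold change 1.98 ± 0.090). In the IL6 and STAT3 axis, 2 of 16 tested members rose and 6 fell (median log2 fold change -0.28). PIM1, a serine kinase downstream of STAT3, had 115, 108 and 113 CPM with DMSO and 57.2, 56.1 and 53.2 CPM with IT848 (log2 fold change -1.01 ± 0.044), the receptor chain IL6ST fell (-0.49), and STAT3 itself rose by 0.22.

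Members of the MYC network and cyclins fell more often than they rose. MYC had 233, 227 and 229.8 CPM with DMSO and 156, 145 and 144 CPM with IT848 (log2 fold change -0.63 ± 0.11, adjusted p = 0.000486), and of the network 1 of 12 tested members rose and 6 fell (median log2 fold change -0.14). CCND2, the D cyclin of MM.1S and 1 of its marker genes, had 406, 423 and 385 CPM with DMSO and 208, 214 and 203 CPM with IT848 (log2 fold change -0.96 ± 0.046), while CCND3 had log2 fold change 0.13 ± 0.060 (adjusted p = 0.104) and CDK4 log2 fold change 0.06 ± 0.054 (adjusted p = 0.445). Of cyclins, their kinases and inhibitors, 2 of 11 tested members rose and 7 fell (median log2 fold change -0.16). With the length trend taken out there were 0 higher and 6 lower, and without DMSO replicate 2 there were 1 higher and 6 lower. CDKN1A, the inhibitor p21, fell slightly (-0.16).

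Nearly all G1/S and DNA replication genes fell, and G2/M genes more often rose. E2F factors drive the first set, through sites searched here as TTTCCCGC or TTTGGCGC on both strands. Of the 51 tested members 44 had a promoter window, and 21 of these held a site (47.7%), against 2.31% of all windows. The share among called members with a window was close to that of the whole list, so it describes the list and not the response. The changed members with the largest falls that held a site were DTL and CLSPN, with the site in capitals shortly before the start.
DTL promoter (chr1:212035498-212035797, plus strand): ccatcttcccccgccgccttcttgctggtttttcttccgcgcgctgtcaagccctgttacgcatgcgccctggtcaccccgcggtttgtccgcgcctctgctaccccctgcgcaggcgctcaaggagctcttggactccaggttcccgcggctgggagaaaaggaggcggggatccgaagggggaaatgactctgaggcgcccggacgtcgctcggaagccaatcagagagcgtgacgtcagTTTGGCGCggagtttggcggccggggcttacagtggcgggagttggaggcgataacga
CLSPN promoter (chr1:35769929-35770228, minus strand): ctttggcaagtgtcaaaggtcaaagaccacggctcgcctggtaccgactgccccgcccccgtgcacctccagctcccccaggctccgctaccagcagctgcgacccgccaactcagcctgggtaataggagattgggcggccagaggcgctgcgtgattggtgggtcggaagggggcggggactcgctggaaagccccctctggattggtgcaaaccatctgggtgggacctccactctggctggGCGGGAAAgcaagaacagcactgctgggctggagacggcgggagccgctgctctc
DTL, a substrate adaptor that clears the licensing factor CDT1, had 193, 199 and 207 CPM with DMSO and 121, 116 and 119 CPM with IT848 (log2 fold change -0.75 ± 0.042, adjusted p = 8.39e-09).

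Of the G1/S list, 0 of 51 tested members rose and 45 fell (median log2 fold change -0.46). The groups did not overlap for 45 of the 51, against 47.2% of all tested genes. UNG, which removes uracil from DNA, had 99.5, 97.5 and 102 CPM with DMSO and 57.01, 58.4 and 61.8 CPM with IT848 (log2 fold change -0.75 ± 0.043). E2F1 fell by 0.66 on the log2 scale, the replication factor MCM10 by 0.73, the helicase subunit MCM2 by 0.62 and the sliding clamp PCNA by 0.36. RRM2, a ribonucleotide reductase subunit, had log2 fold change -0.09 ± 0.037 (adjusted p = 0.0597). In the G2/M list, 18 of 37 tested members rose and 4 fell (median log2 fold change 0.16); the falls were 2 without IT848 replicate 3. CCNB1, the mitotic cyclin B1, had 69.7, 75.3 and 76.5 CPM with DMSO and 92.6, 109 and 121 CPM with IT848 (log2 fold change 0.54 ± 0.073), HMMR rose by 0.50 and CCNB2 by 0.38. TOP2A had log2 fold change -0.01 ± 0.040 (adjusted p = 0.818).

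Ribosome biogenesis genes, many of which MYC drives, fell with the G1/S genes: 0 of 36 tested members rose and 31 fell (median log2 fold change -0.28). UTP20, of the small subunit processome, had 85.96, 80.6 and 79.5 CPM with DMSO and 54.2, 49.8 and 46.8 CPM with IT848 (log2 fold change -0.71 ± 0.061), MYBBP1A fell by 0.69, NOLC1 by 0.63 and nucleolin, NCL, by 0.54 on the log2 scale. NPM1 had log2 fold change -0.04 ± 0.075 (adjusted p = 0.704). Splicing factors fell in smaller steps: 1 of 25 tested members rose and 19 fell (median log2 fold change -0.19). HNRNPD, which binds AU-rich mRNA, had 883, 867 and 845 CPM with DMSO and 606, 590.2 and 543 CPM with IT848 (log2 fold change -0.58 ± 0.043), a larger step than those of SRSF2 (-0.28) and SRSF7 (-0.19).

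More interferon-stimulated genes rose than fell in MM.1S. In the list, 26 of 46 tested members rose and 5 fell (median log2 fold change 0.40), and the falls were 3 without DMSO replicate 3 or IT848 replicate 3. MX1, an antiviral GTPase, had 24.8, 23.9 and 24.8 CPM with DMSO and 69.2, 68.5 and 68.03 CPM with IT848 (log2 fold change 1.49 ± 0.058, adjusted p = 1.66e-10). IFI44 had 1.04, 1.25 and 1.23 CPM with DMSO and 3.34, 3.87 and 3.25 CPM with IT848 (log2 fold change 1.58 ± 0.16) and ISG15, a ubiquitin-like modifier, 1.20, 1.58 and 1.48 CPM with DMSO and 2.46, 3.32 and 2.77 CPM with IT848 (log2 fold change 1.02 ± 0.13). The factor IRF7 rose by 0.70. IFIT1 had log2 fold change -0.04 ± 0.14 (adjusted p = 0.84) and IFIT3 log2 fold change -0.16 ± 0.11 (adjusted p = 0.282), and neither was called. Too few members had a promoter window for a share of interferon-response elements to be given.

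The activators of antigen presentation genes fell. CIITA, the master activator of class II genes, had 56.8, 48.4 and 48.1 CPM with DMSO and 22.7, 21.1 and 21.01 CPM with IT848 (log2 fold change -1.24 ± 0.082, adjusted p = 5.46e-08). NLRC5, its class I counterpart, fell from 6.86 ± 0.706 to 4.32 ± 0.362 CPM (log2 fold change -0.67 ± 0.094) and the trimming peptidase ERAP1 by 0.44, whereas B2M rose by 0.39, a call that was lost without DMSO replicate 1 (adjusted p = 0.0584). Of the 14 tested members of the class II list 7 are listed at several places, so no median is given for it. Its 3 called members, all lower, were CIITA, RFX5 (-0.22) and CD74 (-0.19). The call of CD74 was lost without IT848 replicate 2 or 3 (adjusted p of at most 0.0646).

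Sterol genes went both ways. Of cholesterol synthesis genes, driven by SREBP2, 12 of 25 tested members rose and 2 fell (median log2 fold change 0.22). SQLE, squalene epoxidase, had 8.51, 9.55 and 9.45 CPM with DMSO and 12.4, 11.6 and 10.9 CPM with IT848 (log2 fold change 0.34 ± 0.071). Of the list of the sterol-sensing receptor LXR and sterol efflux, 3 of 9 tested members rose and 5 fell (median log2 fold change -0.55). The receptor gene NR1H3 was among the rises (0.37). ABCG1, a sterol exporter, had 16.5, 17.7 and 15.3 CPM with DMSO and 6.15, 5.03 and 5.62 CPM with IT848 (log2 fold change -1.56 ± 0.10, adjusted p = 2.90e-08). ABCA1, another exporter, fell from 2.53 ± 0.186 to 1.44 ± 0.153 CPM (log2 fold change -0.81 ± 0.11), MYLIP, a ubiquitin ligase, by 1.02 and SREBF1 by 0.55 on the log2 scale.

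Of lysosome and autophagy genes, 23 of 37 tested members rose and 3 fell (median log2 fold change 0.19). GABARAPL1, a membrane-bound autophagy modifier, had 7.42, 7.60 and 8.16 CPM with DMSO and 27.1, 26.7 and 27.2 CPM with IT848 (log2 fold change 1.80 ± 0.061, adjusted p = 3.85e-11). GPNMB, a lysosomal glycoprotein of the TFEB family's targets, rose 2.46-fold, GLA by 0.98 and MAP1LC3B, which encodes LC3B, by 0.60 on the log2 scale. TFEB itself had log2 fold change 0.11 ± 0.071 (adjusted p = 0.255).

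Collagen hydroxylases stood out among metabolic genes. P4HA2, a prolyl hydroxylase that stabilises collagen, had 16.01, 15.5 and 14.8 CPM with DMSO and 137, 134 and 129.6 CPM with IT848 (log2 fold change 3.11 ± 0.11, adjusted p = 4.98e-10). PLOD1, a lysyl hydroxylase, had 26.4, 25.4 and 26.4 CPM with DMSO and 60.9, 56.3 and 54.4 CPM with IT848 (log2 fold change 1.13 ± 0.053), and PLOD3 rose by 0.57 and P4HA1 by 0.39. In the list, 6 of 8 tested members rose and 1 fell (median log2 fold change 0.48). Beside it, the stromal markers COL1A1 and COL3A1 rose too (0.49 and 0.49) from 6.62 ± 0.865 to 9.28 ± 1.62 CPM and from 4.29 ± 0.529 to 5.99 ± 0.673 CPM, and the part of such reads in this list was not tested; 1 of the 5 stromal markers was called without DMSO replicate 1. P4HA2 has an antisense partner, P4HA2-AS1, that cannot be told apart from it without strand. In the glycolysis and hypoxia list, 11 of 28 tested members rose and 7 fell (median log2 fold change 0.06), with 3 falls without DMSO replicate 2. The glucose transporter SLC2A3 rose by 0.72 and hexokinase HK2 fell (-0.50), while VEGFA had log2 fold change 0.01 ± 0.054 (adjusted p = 0.918).

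Of immediate early genes, 5 of 33 tested members rose and 13 fell (median log2 fold change -0.01). JUN fell from 37.1 ± 0.413 to 31.1 ± 0.207 CPM (log2 fold change -0.25 ± 0.051), DUSP4, a MAPK phosphatase, had 242, 249.9 and 239.6 CPM with DMSO and 161, 155 and 149 CPM with IT848 (log2 fold change -0.65 ± 0.085) and JUND rose by 0.58. EGR1 had log2 fold change 0.30 ± 0.26 (adjusted p = 0.378).

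In the BCL2 family, 4 of 18 tested members rose and 7 fell (median log2 fold change -0.15), and both arms took part. BCL2L11, the death-promoting BIM, had 1341, 1351 and 1324 CPM with DMSO and 902, 897 and 838 CPM with IT848 (log2 fold change -0.61 ± 0.036), and BMF fell by 0.44. Of the survival members, BCL2 had 77.9, 77.9 and 73.4 CPM with DMSO and 59.2, 58.1 and 50.6 CPM with IT848 (log2 fold change -0.45 ± 0.057), BCL2L1 fell by 0.37 and MCL1 by 0.31. PMAIP1, which encodes NOXA, had log2 fold change -0.14 ± 0.10 (adjusted p = 0.263) and BBC3, PUMA, log2 fold change -0.04 ± 0.14 (adjusted p = 0.854). Among death receptor genes, 6 of 16 tested members rose and 3 fell (median log2 fold change 0.12). FAS rose from 81.9 ± 5.95 to 126 ± 10.2 CPM (log2 fold change 0.63 ± 0.070), and CFLAR, which blocks caspase-8 at such receptors, fell (-0.42). Of p53 targets, 6 of 21 tested members rose and 8 fell (median log2 fold change 0.01). PLK2, a polo-like kinase, had 17.8, 19.8 and 18.6 CPM with DMSO and 53.6, 48.9 and 51.01 CPM with IT848 (log2 fold change 1.45 ± 0.074), while MDM2 fell (-0.40) and TP53INP1 fell (-0.79).

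The glucocorticoid receptor and its targets are of interest because MM.1S responds to dexamethasone. In this list, 2 of 10 tested members rose and 7 fell (median log2 fold change -0.26). The falls were 5 with the length trend taken out (median -0.19) and 5 without DMSO replicate 2. DUSP1 rose by 0.47, a call that was lost without IT848 replicate 3 (adjusted p = 0.0669). TSC22D3, which encodes GILZ, fell from 151 ± 1.07 to 114 ± 1.56 CPM (log2 fold change -0.41 ± 0.041), and FKBP5, an HSP90 partner that such hormones induce, had 189, 190.0 and 199 CPM with DMSO and 139.9, 129 and 123 CPM with IT848 (log2 fold change -0.56 ± 0.048). The receptor gene NR3C1 fell by 0.19, a call that was lost with the length trend taken out (adjusted p = 0.199).

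Of homing and adhesion genes, 2 of 22 tested members rose and 9 fell (median log2 fold change -0.14). CXCR4, which holds myeloma cells in the marrow, had 65.3, 69.04 and 72.4 CPM with DMSO and 30.7, 29.7 and 27.8 CPM with IT848 (log2 fold change -1.23 ± 0.051, adjusted p = 3.56e-10). CX3CR1, the fractalkine receptor, had 35.7, 34.4 and 34.03 CPM with DMSO and 14.4, 13.8 and 14.7 CPM with IT848 (log2 fold change -1.28 ± 0.11), and the chemokine receptor CCR2 fell from 11.4 ± 1.05 to 6.29 ± 0.542 CPM (log2 fold change -0.86 ± 0.084). The integrin chain ITGA4 fell by 0.23, whereas ITGB7, another marker of the line, had log2 fold change -0.14 ± 0.069 (adjusted p = 0.142). Of the secretory machinery, 4 of 14 rose and 2 fell (median log2 fold change 0.01), not far from the shares of all genes. There were 2 rises without DMSO replicate 1, DMSO replicate 2 or IT848 replicate 3 and 1 with the length trend taken out. The immunoglobulin joining chain IGJ had log2 fold change 0.34 ± 0.13 (adjusted p = 0.0589).

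Short transcripts rose and long ones fell between the groups. The deviation of each gene from its mean over the 6 libraries was ranked against transcript length across 10299 genes, which are not independent replicates. Spearman's rho was 0.43, 0.35 and 0.16 in DMSO replicates 1 to 3 and 0.034, -0.33 and -0.47 in IT848 replicates 1 to 3, so the libraries also differed within each group. Genes were placed in 5 equal bins by length. From the shortest to the longest bin, with median lengths of 1278 and 6939 bases, the median log2 fold change went from 0.16 to -0.13. In the shortest bin 44.0% of genes rose and 9.95% fell, and in the longest 11.2% rose and 44.0% fell. With a smooth trend on length taken out of each library, 6339 genes were called, 5243 of them also called without it, and 275 of the 279 rises and 202 of the 207 falls of at least 2-fold kept their call. The treatment and a difference between library preparations cannot be told apart as the source of this trend.

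**Figure D4:**
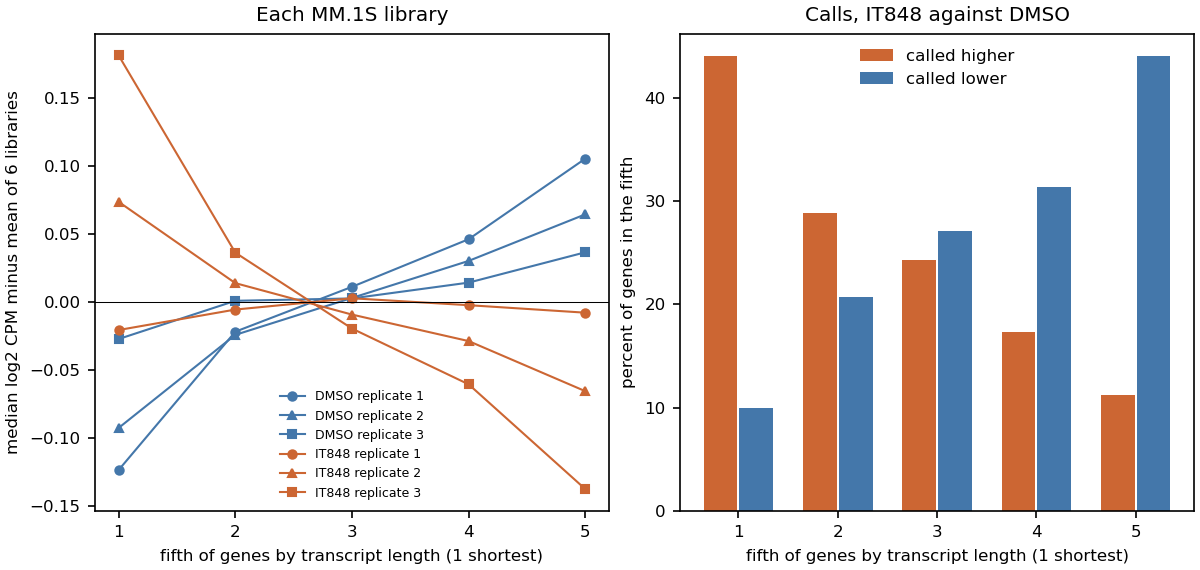
Left, the median log2 CPM minus the mean of the 6 libraries (vertical) in 5 equal bins of genes by transcript length (horizontal, 1 the shortest), with a line per MM.1S library; right, the percent of genes in each bin called higher or lower with IT848. DMSO lines climb and the lines of IT848 replicates 2 and 3 descend, IT848 replicate 1 is nearly flat, and the share called higher drops from 44.0% to 11.2% across the bins.

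Groups of short genes sit along this trend. Of cytosolic ribosomal protein genes, with a median transcript length of 764 bases, 73 of 79 tested members rose and 0 fell (median log2 fold change 0.41), and the list's median over DMSO was 0.16, 0.37 and 0.66 in IT848 replicates 1 to 3. With the trend taken out there were 64 higher and 1 lower (median 0.23). Nuclear genes of the respiratory chain changed in part: 43 of 79 rose and 2 fell (median log2 fold change 0.25), against 28 higher and 10 lower (median 0.13) with the trend taken out, 23 rises without DMSO replicate 1 and 27 without IT848 replicate 3. Mitochondrial ribosomal protein genes were mostly not called: 21 of 76 rose and 5 fell (median log2 fold change 0.16), against 11 higher and 15 lower (median 0.03) with the trend taken out. Their rises ranged from 13 (without DMSO replicate 1, DMSO replicate 2 or IT848 replicate 3) to 45 (without IT848 replicate 1). With the trend taken out, the medians of the proteasome, NRF2 regulator, G1/S and ribosome biogenesis lists were 0.40, 0.51, -0.45 and -0.34. The ribosomal protein and respiratory chain lists thus kept the sign of their medians. So did mitochondrial ribosomal proteins, though with more falls than rises. Medians of some other lists of short genes changed sign. For the secretory machinery (median length 1246 bases) it went from 0.01 to -0.03. For immunoproteasome, activator and assembly genes (1140 bases) it went from 0.08 to -0.03.

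The response was larger in MM.1S than in U266 for most of the ranked genes. In U266, 1512 genes changed (9.01%), of which 1030 also changed in MM.1S, 887 in the same direction and 143 in the opposite one. These 1030 are 68.1% of the U266 calls and 16% of the MM.1S calls. The test of the difference itself called 2924 genes (17.4%), 1424 with a higher response in MM.1S (8.49%) and 1500 with a lower one (8.94%); without DMSO replicate 2 of MM.1S and IT848 replicate 1 of U266, it called 1712. It called all 12 of the largest rises and 10 of the 12 largest falls, the exceptions being COLCA1 and CX3CR1. Of the 279 genes that rose at least 2-fold, 158 had a higher response in MM.1S by this test and 73 also rose in U266. Of the 207 that fell at least 2-fold, 86 had a lower response in MM.1S and 13 also fell in U266. The members were ranked on the MM.1S response, so a larger response there is in part set by the choice.

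**Figure D5:**
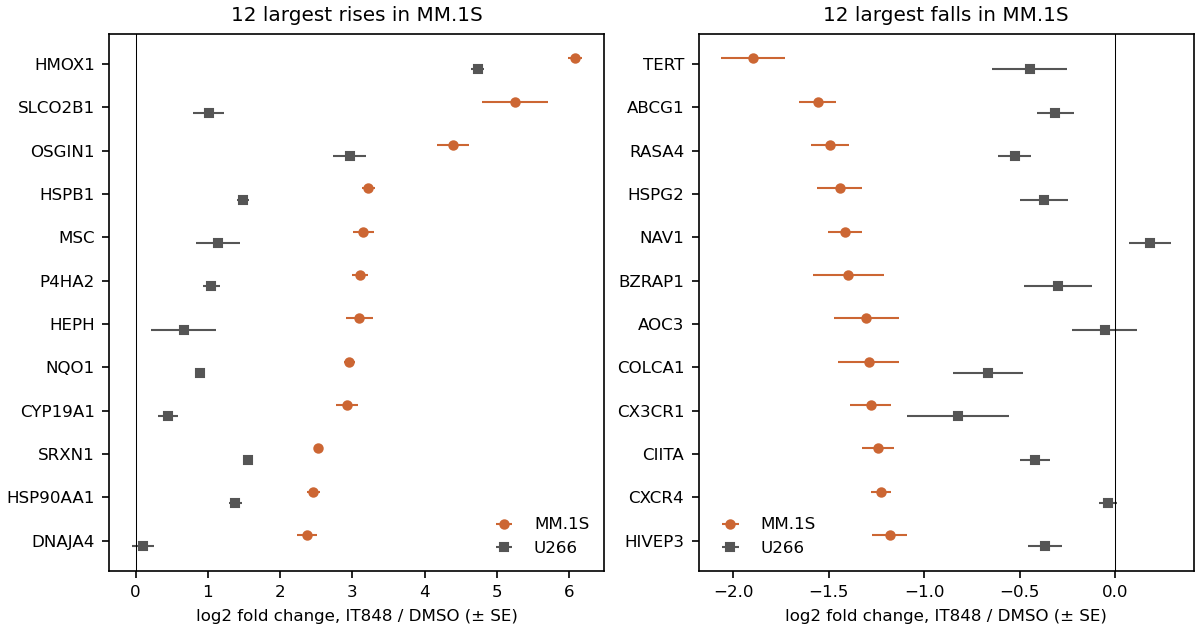
Log2 fold change of IT848 against DMSO (± SE) for the 12 largest rises (left) and 12 largest falls (right) of MM.1S, with MM.1S as circles and U266 as squares. Every named rise has its MM.1S value to the right of its U266 value, from HMOX1 (6.08 against 4.74) to DNAJA4 (2.37 against 0.10), and among the falls AOC3 (-0.06) and CXCR4 (-0.04) have the U266 values nearest 0.

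HMOX1 rose in both lines, by 6.08 in MM.1S and 4.74 ± 0.091 in U266 (difference 1.34 ± 0.12, adjusted p = 5.51e-06). NQO1 rose by 0.89 ± 0.071 in U266 (difference 2.07 ± 0.10, adjusted p = 1.44e-08). DNAJA4 had 0.10 ± 0.15 there (difference 2.27 ± 0.20, adjusted p = 5.38e-06). Chaperone genes differed in both directions: HSPB1, HSP90AA1 and DNAJA4 had a higher response in MM.1S (1.73, 1.07 and 2.27), and HSPA6, DNAJB1 and BAG3 a lower one. HSPA6 had 0.127, 0.197 and 0.239 CPM with DMSO and 129, 89.6 and 98.8 CPM with IT848 in U266 (9.11 ± 0.21, difference -7.84 ± 0.30, adjusted p = 6.28e-09), and DNAJB1 rose by 1.10 ± 0.059 there, against no call in MM.1S (difference -1.13 ± 0.084, adjusted p = 8.86e-07). BAG3 had 1.58 ± 0.082 in U266 (difference -1.16 ± 0.12, adjusted p = 1.64e-05). Of the proteasome genes the difference was higher in MM.1S for 27 members and lower for 1, of interferon-stimulated genes higher in MM.1S for 22 members and lower for 3, and of the antioxidant glutathione list higher in MM.1S for 12 members and lower for 3. In other lists U266 had more rises. Of integrated stress response genes, 35 rose in U266 against 20 in MM.1S, and the difference was higher in MM.1S for 4 members and lower for 15. Of immediate early genes it was higher in MM.1S for 4 members and lower for 12, and of the HSP70 family higher in MM.1S for 1 member and lower for 5. G1/S and ribosome biogenesis genes fell in MM.1S and were seldom called in U266. For G1/S genes the difference was higher in MM.1S for 0 members and lower for 41, with 3 rises and 2 falls in U266. For ribosome biogenesis it was higher in MM.1S for 0 members and lower for 24, with 0 rises and 1 fall in U266.

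Some genes moved in opposite directions. JUN rose by 1.60 ± 0.052 (difference -1.85 ± 0.073, adjusted p = 2.79e-09) and DDIT4 by 0.71 ± 0.065 (difference -1.41 ± 0.10, adjusted p = 6.02e-07) in U266, both of which fell in MM.1S. MYC and DUSP4 also fell in MM.1S and were not called in U266, at 0.36 ± 0.16 (difference -0.99 ± 0.19, adjusted p = 0.00406) and 0.40 ± 0.12 (difference -1.05 ± 0.15, adjusted p = 0.000349). CXCR4 had -0.04 ± 0.048 in U266 (difference -1.19 ± 0.070, adjusted p = 7.91e-08) and CCL3 -0.20 ± 0.059 (difference 1.90 ± 0.085, adjusted p = 6.28e-09). Falls of the plasma cell factors were shared in part, with IRF4 at -0.58 ± 0.048 and POU2F2 at -0.88 ± 0.074 in U266. Of that list the difference was higher in MM.1S for 1 member and lower for 6. SDC1 fell in both lines, by 1.04 in MM.1S and 0.54 in U266 (difference -0.50 ± 0.051, adjusted p = 1.56e-05).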

How the data were processed

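RNA of MM.1S and U266 cells was sequenced in paired reads in 12 libraries. Per the submitters' processing notes, reads were split with bcl2fastq, trimmed with Trimmomatic 0.36, aligned to hg19 with STAR 2.5.2b and counted with featureCounts of Subread 1.5.2. The deposited read counts are whole numbers per transcript and not normalised, and a read was counted for each transcript it overlapped. The authors also deposited FPKM and TPM values per transcript, which were not used in any test. No source used here gives the strand setting, the annotation release or the treatment of multiply mapped reads.

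Counts were summed per symbol, which weights genes with many transcripts in level but not in ratio. Genes passing edgeR's filterByExpr (minimum count 10) were fitted over all 12 libraries with TMM factors by edgeR 4.0.16's robust quasi-likelihood F test in R 4.3.3, so that both lines share the estimate of spread. IT848 was set against DMSO within each line, and the 2 responses were then compared. Benjamini-Hochberg adjustment ran over all 16782 tested genes, and every adjusted p in the text comes from this test, with a threshold of 0.05. The code was tested on simulated data. The MM.1S libraries held 50627690 to 71170495 counts, so small changes of well expressed genes passed the test.

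Named genes are the 12 largest rises and falls with a mean of at least 5 CPM in the higher group, the key genes of each list, and the 3 called members of each list with the largest changes. The genes and lists were chosen with earlier results of these data known, as were the motifs whose promoters are printed. Some genes are not reported here. Replicate numbers were not used as a block in the fit as reported, and whether they pair the libraries was not settled. Promoter windows are from RefSeq (GRCh38.p14), matched by symbol for 12684 tested genes. Motif shares for the stress response and interferon lists are void, since under 80% of members had a window. Tables were handled with Python 3.11.15, pandas 2.3.3 and SciPy 1.17.1. The alternatives were DESeq2 1.42.0, RLE or total-count scaling, no filter, the most counted transcript per symbol, a replicate block, a smooth length trend (spline with 4 degrees of freedom) per library, MM.1S alone, and each library left out.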

Additional observations from a re-analysis of the deposited data

Results flagged for a closer look

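By the test of the difference of responses (MM.1S minus U266, log2 scale, edgeR's quasi-likelihood test), 22 of the 24 largest changes of MM.1S differed between the lines. The genes had been ranked on the MM.1S response. Among rises, the difference was 4.25 for SLCO2B1, 2.47 for CYP19A1, 2.43 for HEPH, 2.27 for DNAJA4, 2.07 for NQO1, 2.06 for P4HA2 and 2.01 for MSC. It was 1.73 for HSPB1, 1.43 for OSGIN1, 1.34 for HMOX1, 1.07 for HSP90AA1 and 0.97 for SRXN1. Among falls, the difference was -1.60 for NAV1, -1.45 for TERT, -1.25 for both ABCG1 and AOC3, -1.19 for CXCR4, -1.10 for BZRAP1, -1.07 for HSPG2, -0.97 for RASA4, -0.82 for CIITA and -0.81 for HIVEP3. For SLCO2B1 the DMSO level in MM.1S rests mostly on replicate 2, and the rise was larger without that library, as given above.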

How the results depend on the processing

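Under the 22 alternatives the number of changed genes in MM.1S stayed within 1.5 times of 6430, at 5110 to 6681 with each library left out in turn, and the number at 2-fold or more stayed within 1.5 times of 486, at 420 to 530. The genes whose response differed between the lines numbered 2208 to 3870 with each library left out, against 2924. They numbered 4388 with a replicate block and 1712 without MM.1S DMSO replicate 2 and U266 IT848 replicate 1; the cause was not tested. Whether replicate numbers pair the libraries was not settled. The deviations of same-numbered DMSO and IT848 libraries correlated at 0.53, 0.01 and 0.54 across genes. For unlike numbers the lowest correlation was -0.57 (DMSO replicate 1, IT848 replicate 3) and the highest 0.18 (DMSO replicate 1, IT848 replicate 2). The block gave 7331 changed genes in MM.1S. Of 309 called named genes, 253 kept their call in every alternative, 28 lost it without DMSO replicate 2 and 17 with the length trend taken out. Not called in the fit as reported, 6 named genes were called with the opposite sign when the length trend was taken out: PSME2 to -0.183, HLA-B to -0.107 and MZB1 to -0.168, each with and without the block, CD44 to 0.095 (0.094 with the block), and, only with the block, CYLD to 0.089 and TOP2A to 0.083. Depth limits mainly genes under about 1 CPM, and genes listed at several places cannot be read at any depth.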

Other observations

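Some genes below the level set for the ranked list changed steeply. They were chosen after their values were seen. RFPL2 had 0.0563, 0 and 0.0702 CPM with DMSO and 3.15, 3.59 and 4.61 CPM with IT848, and CYP4F11, a fatty acid hydroxylase, had 0, 0.0396 and 0.0351 CPM with DMSO and 1.24, 1.54 and 0.873 CPM with IT848. LUCAT1, a long noncoding RNA, went from 0.243 ± 0.0823 to 3.10 ± 0.845 CPM (log2 fold change 3.62 ± 0.26, adjusted p = 1.15e-07). TRPA1, a cation channel opened by electrophiles, had 0.535, 0.495 and 0.474 CPM with DMSO and 2.31, 2.19 and 1.78 CPM with IT848 (log2 fold change 2.06 ± 0.19). In each of these genes every IT848 library lay above every DMSO library, which is in part set by the choice.

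Falls outside the lists included HES6, a basic helix-loop-helix factor, with 72.7, 66.7 and 69.95 CPM with DMSO and 28.3, 34.8 and 30.6 CPM with IT848 (log2 fold change -1.16 ± 0.080) and 0.34 ± 0.11 in U266 (difference -1.50 ± 0.13, adjusted p = 5.38e-06). SNCAIP, which encodes the synuclein-binding synphilin, had 56.3, 50.03 and 52.7 CPM with DMSO and 26.8, 24.8 and 22.6 CPM with IT848 (log2 fold change -1.10 ± 0.13), and KLRC1, a receptor of natural killer cells, had 1.77, 2.29 and 2.42 CPM with DMSO and 0.636, 0.719 and 0.531 CPM with IT848 (log2 fold change -1.77 ± 0.22).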
